A study of Mus musculus with 4 samples.

Results

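A set of 5 solute carrier genes of the mouse testis were followed: the citrate carrier gene Slc13a5, its dicarboxylate-carrying relative Slc13a3, and the organic anion transporter genes Slco6b1, Slco6c1 and Slco6d1. They were selected by gene symbol, with the Znhit1_KO against CTRL differences of these same libraries already known, so those differences are given as a description with no test. All 5 were among the 55335 genes of the deposited count table, and all 5 passed the filter on low counts that left 24116 genes. The study sequenced poly(A) RNA of mouse testes at postnatal day 14 (germ cells, in the words of the series' design) and asked how loss of ZNHIT1, a subunit of the SRCAP complex that places histone variant H2A.Z in chromatin, bears on gene expression in meiosis. There were 2 libraries labelled Znhit1_KO and 2 labelled CTRL, named here by group and replicate number. No source used here names the allele, the strain, any Cre driver or whether a library pools animals.

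Slc13 proteins are sodium-coupled carriers of the plasma membrane. The Slc13a5 product (NaCT) brings citrate into the cell, and the Slc13a3 product (NaDC3) carries dicarboxylates such as succinate and is known from the kidney proximal tubule. Citrate in the cytosol is cleaved by ATP citrate lyase to acetyl-CoA, the building block of fatty acids and of histone acetylation. Slco genes encode organic anion transporting polypeptides, sodium-independent carriers of bile salts, steroid conjugates and thyroid hormones, and the Slco6 subfamily is known in rodents for its expression in the testis.

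The 3 Slco6 genes lie on chromosome 1 (GRCm38, mm10, GENCODE M21). Slco6b1 (96906176 to 96997577, minus strand) is annotated as a transcribed unprocessed pseudogene with no coding sequence. Slco6c1 (97059038 to 97128301, minus strand) is protein-coding, and its start lies 130724 bases from that of Slco6b1. Slco6d1 (98421124 to 98516991, plus strand) is protein-coding and starts 1292823 bases from Slco6c1. The longest transcripts of Slco6c1 and Slco6d1 were 65.2% identical over aligned bases, those of Slco6b1 and Slco6c1 64.9%, and those of Slco6b1 and Slco6d1 62.1%. These are diverged relatives and not near-identical copies: no run of 50 bases was shared between transcripts of the 3 genes. For Slco6c1, 0.493% of its 50-base runs occurred in another gene, the predicted gene Gm47022.

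The stretch before the transcription start was also alike among the 3. Over aligned bases of the 300-base promoter window (250 before to 50 after the RefSeq start, GRCm38.p6), Slco6b1 and Slco6c1 were 78.6% identical, Slco6c1 and Slco6d1 75.6%, and Slco6b1 and Slco6d1 65.4%, whereas pairs of a Slco6 and a Slc13 promoter reached 39.9% to 52.7%. The 250 bases before each Slco6 start are shown because the 3 genes are neighbours in sequence and stood on the same side of CTRL. They are chr1:96997561-96997810 for Slco6b1 and chr1:97128304-97128553 for Slco6c1, both read on the minus strand, and chr1:98420874-98421123 for Slco6d1 on the plus strand. Capitals mark the 3 longest runs found in all of them.
Slco6b1: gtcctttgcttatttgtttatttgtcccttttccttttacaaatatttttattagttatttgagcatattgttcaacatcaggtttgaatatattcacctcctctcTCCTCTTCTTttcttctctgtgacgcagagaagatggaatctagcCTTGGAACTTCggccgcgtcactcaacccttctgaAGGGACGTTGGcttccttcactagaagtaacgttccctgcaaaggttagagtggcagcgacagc
Slco6c1: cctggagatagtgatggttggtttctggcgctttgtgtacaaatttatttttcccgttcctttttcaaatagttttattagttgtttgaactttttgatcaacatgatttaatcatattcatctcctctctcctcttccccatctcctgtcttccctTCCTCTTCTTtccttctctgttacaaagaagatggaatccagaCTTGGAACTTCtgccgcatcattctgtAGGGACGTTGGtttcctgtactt
Slco6d1: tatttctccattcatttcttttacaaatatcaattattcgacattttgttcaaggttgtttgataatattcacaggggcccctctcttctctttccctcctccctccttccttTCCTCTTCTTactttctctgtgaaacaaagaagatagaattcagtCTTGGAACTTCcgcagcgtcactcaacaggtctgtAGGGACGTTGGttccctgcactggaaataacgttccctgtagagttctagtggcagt
The run CTTGGAACTTC began at positions -99, -50 and -92 from the start of Slco6b1, Slco6c1 and Slco6d1, and AGGGACGTTGG at -64, -23 and -57. Of 32851 promoter windows in the RefSeq table, 11 (0.0335%) held the first run on either strand and 8 (0.0244%) the second, the Slco6 windows included. TCCTCTTCTT was more widespread, with 112 windows (0.341%).

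Slc13a5 has a promoter of another kind. It lies on chromosome 11 (72241989 to 72267222, minus strand, protein-coding), and RefSeq gives it a pair of starts. The 250 bases before them held 65.6% and 61.6% G and C, against 42%, 39.6% and 42% for Slco6b1, Slco6c1 and Slco6d1, 67.6% for Slc13a3 and a median of 52.4% over all windows. The bases before the start nearer to the coding sequence, chr11:72266660-72266854 on the minus strand, are shown up to the first base of the GENCODE coding transcripts, with CG dinucleotides in capitals.
Slc13a5: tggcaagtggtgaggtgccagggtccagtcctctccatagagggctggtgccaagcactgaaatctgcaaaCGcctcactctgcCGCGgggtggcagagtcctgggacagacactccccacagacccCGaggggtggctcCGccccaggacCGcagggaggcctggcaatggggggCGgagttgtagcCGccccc
Both strands of the 6 member windows were searched for 7 short motifs. The MYB core AACTG, present in 44.8% of all windows, was in none of them, and the other MYB core, AACGG (17.4% of windows), was found only in Slco6c1. The CRE core TGACG (20.8%), which is contained in the full CRE TGACGTCA (1.79%), was in Slco6b1, Slco6d1 and Slc13a3, and the full CRE was in none. CCAAT (37.4%) was found only at Slc13a5, and the X-box core GTTGCC (12.5%) and TATAAA (13.6%) at no member.

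Znhit1 itself, the gene named in the genotype, stood at 55.4 and 90.2 TPM in CTRL replicates 1 and 2 and at 7.996 and 5.24 TPM in Znhit1_KO replicates 1 and 2. TPM (transcripts per 1e6 transcripts) comes from the authors and is scaled to transcript length, so levels of different genes can be compared on them. Counts per library summed to between 129531714 and 157790457. They are treated as estimates, and no counting interval is given for them.

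Slc13a5 was expressed at a low level in CTRL testis and close to absent in Znhit1_KO testis. Its level was 4.81 and 13.6 TPM in CTRL replicates 1 and 2, and 0.262 and 0.465 TPM in Znhit1_KO replicates 1 and 2. Both Znhit1_KO libraries lay far below both CTRL libraries: in CPM, counts scaled to library size, the lower CTRL library was 9.92 times the higher Znhit1_KO library. The CTRL libraries themselves differed 3.21-fold in CPM. The fitted log2 change in CPM was -4.72 (SE 0.703), the 134th lowest of 24116 genes, and equal to 26.4-fold lower in Znhit1_KO. Without CTRL replicate 2 the log2 change was -3.65. In RNA from a mix of cells, fewer cells of a type and less RNA per cell cannot be told apart.

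Slco6c1 was in the same range as Slc13a5, with 1.04, 0.829, 0.574 and 1.07 estimated counts per Slc13a5 count in CTRL replicates 1 and 2 and Znhit1_KO replicates 1 and 2. It stood at 6.10 and 14.04 TPM in CTRL replicates 1 and 2 and at 0.177 and 0.581 TPM in Znhit1_KO replicates 1 and 2. The lower CTRL library was 9.63 times the higher Znhit1_KO library in CPM, and the log2 change was -4.71 (SE 0.780), the 137th lowest of all genes tested. The estimated counts behind these values were 824 and 2000 in CTRL and 31 and 88 in Znhit1_KO. CTRL replicate 2 was again the highest library and Znhit1_KO replicate 1 the lowest. Leaving out CTRL replicate 2 gave a log2 change of -3.88, and leaving out Znhit1_KO replicate 2 gave -5.81.

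Slco6d1 was the next in level in CTRL, and in TPM it stood above Slc13a5 and Slco6c1 in each Znhit1_KO library. In CPM it was below Slc13a5 in Znhit1_KO replicate 1, at 0.266 against 0.342. It stood at 1.93 and 5.05 TPM in CTRL replicates 1 and 2 and at 0.276 and 0.970 TPM in Znhit1_KO replicates 1 and 2. The groups did not overlap, but the gap was narrow: the lower CTRL library was 1.92 times the higher Znhit1_KO library in CPM, while the Znhit1_KO libraries differed 3.77-fold between themselves. The log2 change was -2.49 (SE 0.804). With CTRL replicate 2 left out it was -1.60, and with Znhit1_KO replicate 2 left out -3.76.

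The balance between the coding Slco6 genes differed between the groups. In CTRL, Slco6d1 stood at 0.316 and 0.360 of the Slco6c1 level in TPM, in replicates 1 and 2. In Znhit1_KO the order was turned, with Slco6d1 at 1.56 and 1.67 times Slco6c1. In Znhit1_KO replicates 1 and 2 the estimated counts were low, at 42 and 139 for Slco6d1 and 31 and 88 for Slco6c1. The ratios come from the same contrast that the genes were chosen with, and no test was made.

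The pseudogene Slco6b1 was the lowest of the Slco6 genes in 3 of the 4 libraries, and its difference rested on a single library. Its level was 0.321 and 1.44 TPM in CTRL replicates 1 and 2 and 0.226 and 0.173 TPM in Znhit1_KO replicates 1 and 2. CTRL replicate 2 stood apart, and CTRL replicate 1 was within 1.40-fold of the higher Znhit1_KO library in CPM. The log2 change was -2.21 (SE 0.841) with all libraries and -0.65 without CTRL replicate 2.

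Slc13a3 had low levels in both groups. This gene (chromosome 2, 165405028 to 165473230, minus strand, protein-coding) stood at 0.381 and 0.374 TPM in CTRL replicates 1 and 2 and at 0.310 and 0.298 TPM in Znhit1_KO replicates 1 and 2. In CPM its groups overlapped, at 0.511 and 0.421 in CTRL and 0.437 and 0.425 in Znhit1_KO, and the log2 change was -0.11 (SE 0.465). In TPM they did not overlap, nor did they per CPM of Sertoli cell markers, where the CTRL mean was 1.37 times the Znhit1_KO mean. Per CPM of pachytene markers, and of leptotene and zygotene markers, they overlapped. There the CTRL mean was 0.557 and 0.788 times the Znhit1_KO mean. Overlap and direction thus depend on the measure. The log2 change was -0.46 when libraries were scaled to the summed Sertoli cell list, a scaling that moved the median of all genes from 0.032 to -0.31, and 0.032 without CTRL replicate 1.

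**Figure D1:**
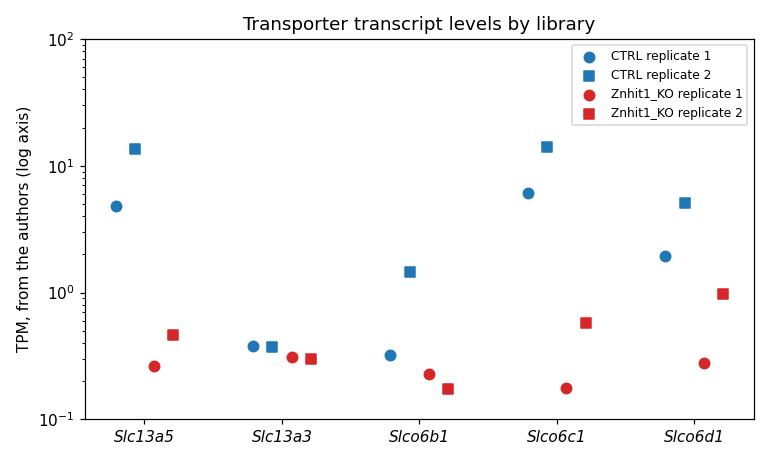
TPM of the 5 genes on a log axis, each point a library, with CTRL in blue, Znhit1_KO in red, circles for replicate 1 and squares for replicate 2. Slc13a5 and Slco6c1 lie between 4.81 and 14.04 TPM in CTRL and between 0.177 and 0.581 TPM in Znhit1_KO, and Slc13a3 stays between 0.298 and 0.381 TPM.

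In order of mean CTRL level in TPM, Slco6c1 (10.1 ± 5.61, SD, n = 2) and Slc13a5 (9.22 ± 6.23) did not differ beyond their spread. Slco6d1 (3.49 ± 2.21), Slco6b1 (0.880 ± 0.791) and Slc13a3 (0.378 ± 0.00532) followed. The ranges of Slc13a5 and Slco6d1 overlapped, from 4.81 to 13.6 and from 1.93 to 5.05 TPM. Slco6b1 and Slc13a3 overlapped too, since in CTRL replicate 1 Slco6b1 (0.321 TPM) was below Slc13a3 (0.381 TPM). In Znhit1_KO all 5 genes were below 1 TPM, with means of 0.364 ± 0.144 for Slc13a5, 0.379 ± 0.285 for Slco6c1, 0.623 ± 0.491 for Slco6d1, 0.200 ± 0.0379 for Slco6b1 and 0.304 ± 0.00824 for Slc13a3.

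Of the 5 genes, 4 had each Znhit1_KO value under each CTRL value in CPM, an ordering that 21.3% of all genes tested showed. The authors' deposited table marks Slc13a5, Slco6c1 and Slco6d1 as lower and leaves Slco6b1 and Slc13a3 unmarked. It marks 3.22% of its 25236 genes as lower. With the quasi-likelihood test of edgeR no gene passed an adjusted p of 0.05 (0 of 24116, 0%), with 2590 genes at an unadjusted p under 0.05, while DESeq2 called 1027. Since the members were chosen with this contrast in view, nothing is read from these counts about them.

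Markers of pachytene spermatocytes, the germ cells in mid meiotic prophase, summed to less in the Znhit1_KO libraries. The 20 pachytene markers summed to 2188 and 4316 CPM in CTRL replicates 1 and 2 and to 1209 and 1824 CPM in Znhit1_KO. All 20 had a negative log2 change, with a median of -1.50 against 0.032 over all genes, 17 lay below CTRL in both Znhit1_KO libraries, and none was at 0. The 4 libraries thus had the same order in this list as in Slc13a5, Slco6c1 and Slco6d1. That order is not particular to pachytene markers. The summed leptotene and zygotene list and the summed round spermatid list, given below, had it too. The share of all genes with this order was not counted. The part of pachytene cell number in the transporter values was not tested.

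The members were also expressed relative to the summed list, a sum carried by a few abundant markers. Hspa2, a germ cell chaperone gene and the most abundant of the list, was 1.85-fold lower in Znhit1_KO. Next in abundance were Piwil1 (2.97-fold lower), Clgn (2.5-fold), Sycp3, of the synaptonemal complex (1.17-fold), and Ldhc (3.69-fold). Other listed markers were far lower, among them the sperm surface gene Adam3 (17.4-fold), Crisp2 (10.8-fold), Spata16 (9.64-fold) and Spink2 (8.87-fold), named after their values were seen. The ratios that follow therefore depend on which markers carry the sum, and they do not tell cell number and RNA per cell apart. Per 1000 CPM of pachytene markers, Slc13a5 stood at 2.68 and 4.35 CPM in CTRL replicates 1 and 2 and at 0.283 and 0.324 CPM in Znhit1_KO, and the ratio of the group means was 11.6. Slco6c1 stood at 2.79 and 3.61 in CTRL and 0.162 and 0.348 in Znhit1_KO on the same scale, with a ratio of 12.6. For Slco6d1 the values were 0.880 and 1.20 in CTRL and 0.220 and 0.549 in Znhit1_KO, a ratio of 2.70. Slco6b1 overlapped between the groups on this scale, at 0.142 and 0.352 in CTRL and 0.183 and 0.0948 in Znhit1_KO. Slc13a3 overlapped as well, at 0.2335 and 0.0974 in CTRL and 0.3613 and 0.233 in Znhit1_KO. The marker list was itself drawn up with results of these libraries known.

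**Figure D2:**
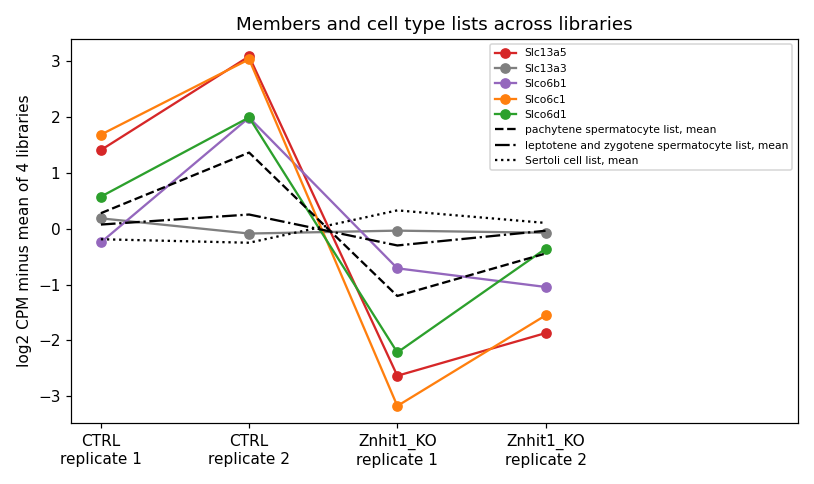
Log2 CPM of each gene minus its mean over the 4 libraries, with the mean of 3 cell type lists in black; the lines only join values of one gene or list. The pachytene list runs from 1.37 in CTRL replicate 2 to -1.20 in Znhit1_KO replicate 1, and Slc13a5 and Slco6c1 span a wider range in the same library order.

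Markers of other cell types were summed in the same way. Counted as lower or higher are markers with both Znhit1_KO libraries below or above both CTRL libraries in CPM. Of all genes tested, 21.3% showed the first ordering and 21.8% the second, so counts near these shares set no list apart. Leptotene and zygotene markers summed to 2687 and 3597 CPM in CTRL and 1932 and 2595 CPM in Znhit1_KO, with 7 of 16 below CTRL in both Znhit1_KO libraries and none at 0. Spermatogonial markers summed to 1808 to 2051 CPM in CTRL and 1705 to 1945 CPM in Znhit1_KO, with 2 of 16 lower. Sertoli cell markers summed to 7428 to 7692 CPM in CTRL and 8928 to 10310 CPM in Znhit1_KO, and 15 of 20 lay above CTRL in both Znhit1_KO libraries, against 21.8% of all genes. Leydig cell markers summed to 572.7 to 628.5 CPM in CTRL and 686.6 to 711.2 CPM in Znhit1_KO, with 7 of 14 higher, and macrophage markers to 65.9 to 82.7 and 82.7 to 114.1 CPM, with 5 of 14 higher. Myoid and stromal markers summed to 1340 to 1386 and 1513 to 1515 CPM, with 4 of 12 higher, and endothelial markers to 132.9 to 157.1 and 167.4 to 180.2 CPM, with 2 of 12 higher. Of the 16 round spermatid markers 7 passed the filter and Sun5, Spaca7 and Lyzl1 were at 0, with sums of 24.6 to 52.2 and 13.6 to 17.8 CPM. The 10 kidney and liver markers summed to 2.63 to 5.38 and 5.91 to 7.68 CPM. In each of these lists edgeR called 0 genes adjusted over all genes, as in the whole table.

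The rest of the citrate pathway did not share the low Slc13a5 level. Slc25a1, the mitochondrial citrate carrier, stood at 223.2 and 293.4 TPM in CTRL replicates 1 and 2 and 258.4 and 267.9 TPM in Znhit1_KO, with a log2 change of -0.026 (SE 0.223). Acly, the ATP citrate lyase gene, had a log2 change of 0.096 (SE 0.150) and Cs, the citrate synthase gene, -0.0053 (SE 0.159). In CPM all 3 overlapped between the groups, but in TPM Acly did not, at 238.6 and 240.5 in CTRL and 263.9 and 254.4 in Znhit1_KO. Of the 22 genes on the citrate handling list 21 were tested, and edgeR called 0 lower and 0 higher. It called 0 of all 24116 genes tested, so this 0 cannot set the list apart. The lowest adjusted p on the list was 0.424 in edgeR, with 2 genes at an unadjusted p under 0.05. DESeq2 called 0 of the list, against 1027 genes in the whole table. The list's median log2 change was 0.18, and -0.17 under the Sertoli list scaling, against 0.032 and -0.31 over all genes. The lowest p belonged to Mdh2, the mitochondrial malate dehydrogenase gene (log2 change 0.44, SE 0.155). A member of the list, Cic, is the gene of the repressor capicua, listed through an alias of the citrate carrier. Without Cic the median was also 0.18 over 20 genes, with 1 gene at an unadjusted p under 0.05 in edgeR.

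Among the other Slc13 genes, Slc13a2, a renal and intestinal dicarboxylate carrier, stood at 4.93 and 2.42 TPM in CTRL replicates 1 and 2 and at 8.81 and 2.70 TPM in Znhit1_KO. Slc13a4, a sulfate carrier, stood at 2.73 and 1.07 TPM in CTRL and 3.54 and 1.28 TPM in Znhit1_KO. Their log2 changes were 0.63 (SE 0.618) and 0.40 (SE 0.625), and both overlapped between the groups. Slc13a1, a sulfate carrier of kidney and gut, had a count of 0 in all 4 libraries.

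The other Slco genes were looked at in the same way. Of 12 on the list 8 were tested, and edgeR called 0, as in the whole table (0 of 24116 genes). A count of 0 therefore cannot set the list apart. By edgeR 0 were at an unadjusted p under 0.05, and the lowest adjusted p was 0.60. DESeq2 called 0 of the list, against 1027 genes in the whole table. In CPM the groups overlapped for all 8 tested genes, whereas in TPM both Znhit1_KO libraries lay above both CTRL libraries for Slco2b1 (1.05 and 2.37 against 2.42 and 4.51 TPM) and Slco1a4 (0.966 and 0.962 against 0.998 and 1.92 TPM), CTRL given first. The median log2 change was 0.38, or 0.072 under the Sertoli list scaling, against 0.032 and -0.31 over all genes. Slco3a1, the most abundant, stood at 40.6 and 27.4 TPM in CTRL replicates 1 and 2 and 49.2 and 34.7 TPM in Znhit1_KO. Slco1a5 and Slco2b1 followed, with log2 changes of -0.11 (SE 0.746) and 0.96 (SE 0.558). Slco4c1, the family member next to Slco6b1 on chromosome 1, had estimated counts of 4 and 0 in CTRL and 8 and 8 in Znhit1_KO.

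**Figure D3:**
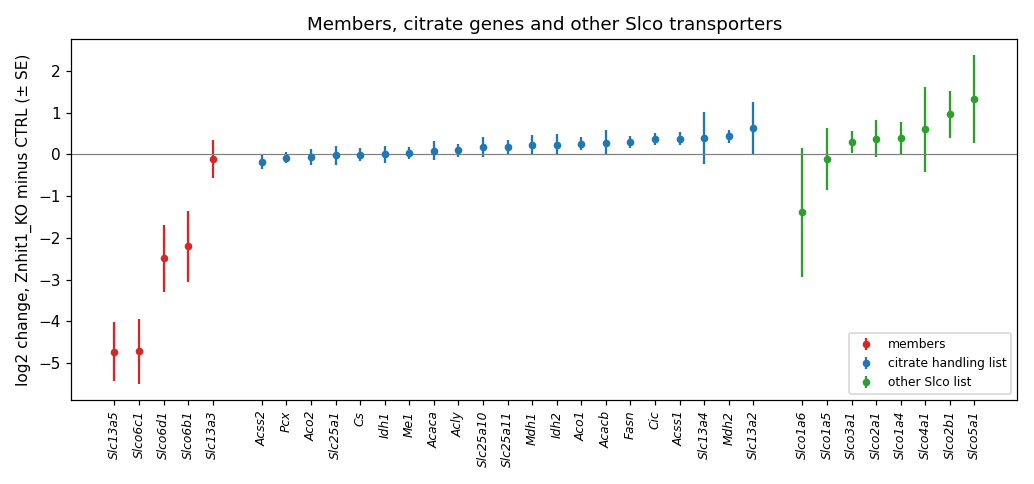
Log2 change, Znhit1_KO minus CTRL, with its SE, for the 5 members in red, the tested citrate handling genes in blue and the tested other Slco genes in green. Slc13a5 and Slco6c1 lie near -4.7 while the medians of the 2 lists are 0.18 and 0.38.

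The low Slc13a5 level was shared by a transcript at its start. The noncoding gene 1700051A21Rik (chromosome 11, 72266421 to 72268575, plus strand) overlaps the 5' end of Slc13a5 on the opposite strand by 802 bases of span. It stood at 6.89 and 20.9 TPM in CTRL replicates 1 and 2 and at 0.364 and 0.487 TPM in Znhit1_KO, with a log2 change of -5.10 (SE 0.731). For each Slc13a5 count it had 0.666 and 0.724 counts in the CTRL libraries, against 0.630 and 0.50 in Znhit1_KO. Their exons share 473 bases, 9.57% of the exon bases of Slc13a5 and 26.3% of those of 1700051A21Rik. No source used here gives the strandedness, so reads in the shared bases could not be assigned. For Slc13a3, Slco6b1 and Slco6d1, overlapping genes shared 0 exon bases.

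Further out on chromosome 11 the values were mixed. Of 11 tested genes with a start within 250 kb of that of Slc13a5, the log2 change was below 0 for 6, and in 3 each Znhit1_KO value lay under each CTRL value in CPM, an ordering that 21.3% of all genes tested showed: 1700051A21Rik, the tektin gene Tekt1 (-1.48, SE 0.595) and Pitpnm3 (-1.17, SE 0.331). In the other direction, Mybbp1a (0.18, SE 0.135), Xaf1 and Pimreg (0.91, SE 0.296) lay above CTRL in both Znhit1_KO libraries, an ordering that 21.8% of all genes tested showed. The median of the 11 was -0.078. The nearest on the other side, Xaf1, had 1.06 (SE 0.355) and Med31, a Mediator subunit gene, -0.19 (SE 0.216). edgeR called 0 of the 11, as it called 0 of all genes tested. Around Slco6c1, 5 genes were tested within 250 kb. Slco6b1 and the unprocessed pseudogenes Gm7135 and Gm7133 were lower in both Znhit1_KO libraries. Gm7135 had estimated counts of 20 and 118 in CTRL and 0 and 15 in Znhit1_KO, and Gm7133 10 and 10 in CTRL and 0 and 0 in Znhit1_KO. The lincRNA Gm28901 (-0.15, SE 0.464) and the processed pseudogene Gm6430 (0.015, SE 0.240), both between Slco6b1 and Slco6c1, overlapped between groups. Beside Slco6d1 both tested neighbours, Gm3555 (0.085, SE 0.426) and Gm7967 (0.23, SE 0.861), overlapped as well. None of the 7 tested neighbours of Slc13a3 was lower in both Znhit1_KO libraries, and their log2 changes ran from -0.046 to 0.66.

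**Figure D4:**
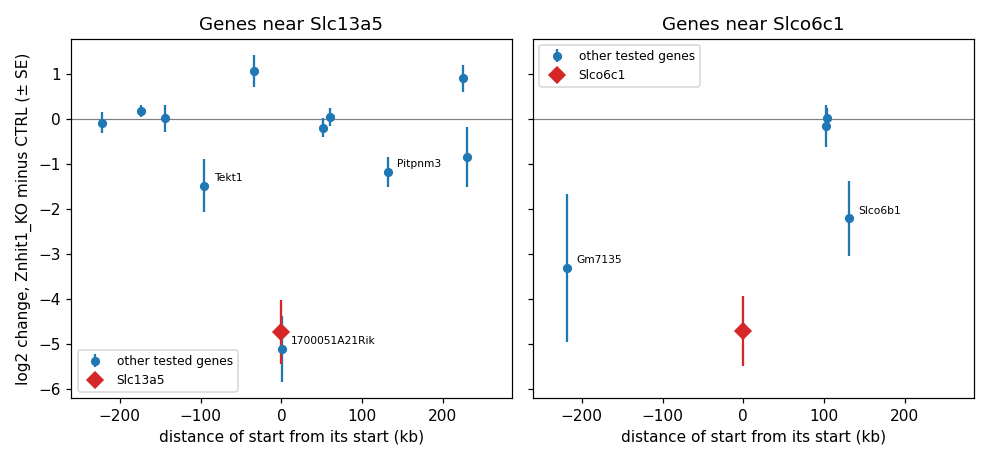
Log2 change with its SE against the distance between gene starts, in kb along the direction of transcription of Slc13a5 (left) and Slco6c1 (right), for tested genes within 250 kb; Gm7133, at 0 in Znhit1_KO, is not drawn. 1700051A21Rik (-5.10) lies on top of Slc13a5 (-4.72), while Xaf1 (1.06) and Med31 (-0.19) do not share the low value; at the right, Slco6b1 (-2.21) and Gm7135 are low and Gm28901 and Gm6430 lie near 0.

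Each gene's pattern over the 4 libraries was compared with 13639 named genes of at least 1 CPM, by the distance between log2 CPM values centred on their mean. Nearest to Slc13a5 were the tektin gene Tekt3 (distance 0.242), Ankrd7 (0.319) and the heparan sulfate sulfotransferase gene Ndst4 (0.347). Nearest to Slco6c1 were Gldnos (0.233), Ccdc175 (0.330) and the sperm calcineurin subunit gene Ppp3r2 (0.546), and Slc13a5 came 4th, at 0.687. For Slco6d1 they were Cmtm2a (0.144), Mag (0.171) and Rbakdn (0.226), and for Slco6b1 Eps8l1 (0.298), Ggn (0.582) and Tmem202 (0.620). For Slc13a3 they were Zfp879 (0.0247), Atad5 (0.0293) and Enox2 (0.0351), all with near-equal values in the 4 libraries. With 4 libraries such likeness is a description only. Slco6c1 was thus nearer to Slc13a5, on another chromosome, than to Slco6d1 (2.16) or Slco6b1 (3.34).

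**Figure D5:**
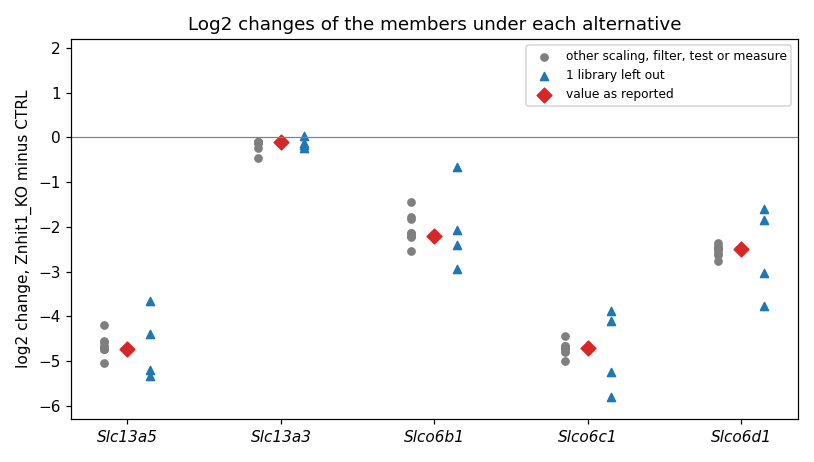
Log2 change of each gene with all libraries (red), under other scalings, filters, tests or measures (grey), and with 1 library left out (blue). Slc13a5 stays between -5.34 and -3.65 and Slco6c1 between -5.81 and -3.88, while Slco6b1 ranges from -2.94 to -0.65 and Slc13a3 lies on both sides of 0.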

How the data were processed

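Poly(A) RNA of testes at postnatal day 14 was sequenced in 2 Znhit1_KO and 2 CTRL libraries. StringTie 2.2.1, HISAT2 2.2.1, DESeq2 1.38.3, cutadapt 2.5 and mm10 are named in the submitters' processing notes, with no order or settings. The deposited count table holds whole numbers. They were treated as the authors' estimated counts, because StringTie, which derives counts from coverage, is named. The authors' deposited comparison table gives TPM per library, log2 changes with standard errors, a mean normalised signal, Wald scores, and p-values. Nothing says whether the replicates came from separate animals beyond being called biological, so the tests measure the spread between these libraries.

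Estimated counts were tested with edgeR 4.0.16 (R 4.3.3; quasi-likelihood F-test, TMM, filterByExpr, genotype as the only term, Benjamini-Hochberg adjustment over all genes at 0.05). CPM used TMM factors, and log2 CPM a prior count of 2. Alternatives were limma 3.58.1 with voom, DESeq2 1.42.0, other scalings, no filter, a replicate block and leaving out each library. The fit was tested on simulated data. Members, gene lists, marker lists and the rule for named genes (listed carriers, the 3 most abundant Slco genes, the 3 nearest patterns, neighbours within 250 kb, with pseudogenes named after their values were seen) were chosen with earlier results of these data known. Promoters came from RefSeq (GRCm38.p6; all 5 members matched, in 6 windows), positions and transcripts from GENCODE M21, and alignments from MAFFT 7.526.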

Additional observations from a re-analysis of the deposited data

How the results depend on the processing

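Over 13 alternatives the log2 changes of Slc13a5, Slco6c1, Slco6d1 and Slco6b1 stayed negative, and 12 of 13 values of each moved by less than the spread between replicates. With 1 library left out they ran from -5.34 to -3.65 for Slc13a5, from -5.81 to -3.88 for Slco6c1, from -3.76 to -1.60 for Slco6d1, from -2.94 to -0.65 for Slco6b1 and from -0.24 to 0.032 for Slc13a3. With Sertoli list scaling Slc13a3 had -0.46. The number of genes called in the whole table was 0 in the edgeR fit, 1027 with DESeq2, 0 with limma-voom, and between 0 and 754 with 1 library left out, the 754 being without CTRL replicate 1; the cause was not tested. With the replicate number as a block edgeR called 2737 of 24116 genes, 1923 of them lower. It called 2 genes of the citrate handling list and 1 of the other Slco list, all higher. Calls of the members are not read in any setting, since the members were chosen with this contrast in view. Deviations from the group mean correlated at 0.421 across genes between same-numbered libraries, but nothing in the labels says what the numbers stand for, so the block is no paired design. Calls on the citrate and other Slco lists were 0 to 0 with 1 library left out. Slco6b1 and Slc13a3 had low estimated counts, of 24 to 195 and 54 to 69, and for Slco6b1 the CTRL libraries differed 4.88-fold in CPM. The part of depth in these values was not tested.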

Other observations

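Several low transporter genes followed the replicate number more than the genotype. Slco1a5 stood at 8.44 and 7.90 CPM in replicate 1 of CTRL and Znhit1_KO and at 2.68 and 2.41 CPM in replicate 2. Slc13a2 stood at 4.53 and 8.34 CPM in the replicate 1 libraries and 2.54 and 2.58 CPM in the replicate 2 libraries, and Slc13a4 at 3.34 and 4.56 against 1.43 and 1.73 CPM. Slc13a5 had the opposite order within each group, with the replicate 2 library 3.21 times and 1.73 times the replicate 1 library in CTRL and Znhit1_KO. Summed pachytene markers were 1.97 times and 1.51 times as high in replicate 2 in the same groups. What the replicate numbers share was not tested.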
